A study of Mus musculus with 11 samples.

Results

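Messenger RNA of 6 genes that encode non-claudin components of the tight junction was followed through the kidneys of mice with 0, 1 or 2 intact copies of Cldn16. The genes are Tjp1, Tjp3 and Cgn, which encode the cytoplasmic plaque proteins ZO-1, ZO-3 and cingulin, and Ocln, Marveld2 and F11r, which encode the membrane proteins occludin, tricellulin and JAM-A. They were chosen by gene symbol in the array's annotation, which gave 7 of the 45281 probes of the array and 6 of the 19057 genes that have a probe with a single symbol.

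The kidneys came from 4 Cldn16 -/- mice (KO), 3 Cldn16 +/- mice (Het) and 4 Cldn16 +/+ mice (WT), with 1 Illumina mouse bead array per mouse. All were females of 8 weeks, killed on postnatal day 58 (3 KO, 2 Het and 2 WT) or 59 (1 KO, 1 Het and 2 WT), and all were of the mixed Sv129 / C57BL/6N background. According to the labels this was an F2 on 129S7/SvEvBrd-Hprtb-m2 with 1 backcross to C57BL/6N. The kidneys were frozen without their poles and their total RNA was hybridised, so fewer cells of a type and less RNA per cell cannot be told apart in any value below. Slide 1 carried 2 KO, 2 Het and 2 WT arrays, and slide 2 carried 2 KO, 1 Het and 2 WT arrays. The labels number the mice but name no litter, and the allele is given only as the genotype, with no description of the deleted part.

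The tight junction is the seal between neighbouring epithelial cells at their apical edge. Claudins form its strands and set which ions pass between the cells. Occludin and tricellulin are members of the MARVEL family of membrane proteins; occludin lies along the strands and tricellulin is concentrated where the corners of several cells meet. JAM-A is an immunoglobulin-type adhesion protein beside the strands that takes part in setting up cell polarity. On the inner face of the membrane the ZO proteins bind the tails of claudins, occludin and JAM-A and tie them to actin, and cingulin joins this plaque to actomyosin. In the kidney the make-up of the junction changes from one nephron segment to the next, and claudin-16, the product of the targeted gene, belongs to the thick ascending limb, where magnesium and calcium are reabsorbed between cells.

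Between 18854 and 19742 probes per array were above background (detection p under 0.01), and the 11 arrays correlated with each other at 0.981 to 0.991. Markers of the thick ascending limb (Umod and Slc12a1), proximal tubule (Slc34a1), distal convoluted tubule (Slc12a3), collecting duct (Aqp2) and endothelium (Pecam1) were above background on all 11 arrays, and so was the adipocyte hormone Adipoq. Of the further markers listed for them, Calb1 (distal convoluted tubule) and Kdr (endothelium) were above background on 0 arrays and Avpr2 (collecting duct) on 2. The others with a probe for these tubule and vessel types were above background on all 11. Further adipose markers were above background on 10 (Cidec), 9 (Cidea and Ucp1), 3 (Lep), 1 (Plin1) or 0 arrays (Fabp4 and Retn). The single Cldn16 probe read 9.35, 8.59, 8.86 and 9.15 log2 units in the KO kidneys, 9.28, 9.38 and 9.37 in the Het kidneys, and 9.61, 9.17, 9.68 and 9.59 in the WT kidneys. Its KO minus WT difference was -0.53 ± 0.16 (SE, adjusted p = 0.227 in limma), and since its place relative to the deletion is not given, it checks nothing about the genotypes. Scores of several marker lists differed between arrays or genotypes. Such a score averages, over the tested genes on a list, each gene's log2 intensity less its mean in WT. For adipose tissue (6 of 9 listed genes tested) it was 1.81 in KO 1, 1.5 in KO 4 and 1.72 in Het 3, and between -1.13 and 0.34 in the other 8 kidneys. For the distal convoluted tubule (8 of 9 genes tested) it was 0.38 to 0.62 in KO kidneys, -0.17 to 0.13 in Het kidneys and -0.06 to 0.11 in WT kidneys. For the collecting duct (10 of 10 genes tested) it was 0.11 to 0.64 in KO kidneys, -0.08 to 0.38 in Het kidneys and -0.23 to 0.38 in WT kidneys, and for blood (3 of 4 genes tested) it was -1.44 to 0.36 in KO kidneys, -0.85 to 0.16 in Het kidneys and -0.84 to 0.66 in WT kidneys. The part of these 3 lists in the differences below was not tested.

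Of the 6 genes, 4 were measured above background in every kidney and 2 in none. Tjp1, Ocln and F11r (1 probe each) and both probes of Tjp3 had a detection p of 0 on all 11 arrays. Cgn and Marveld2 (1 probe each) had a detection p of at least 0.205 and 0.668 on every array. Across the 3 comparisons of genotypes (KO with WT, Het with WT and KO with Het), no probe of the 4 measured genes passed an adjusted p of 0.05 in limma, as against 0.0394%, 0% and 0% of all tested probes in the same order. The kidneys differed from each other within genotypes. F11r values formed a low and a high set, which some but not most other genes of chromosome 1 shared, and Ocln was lowest in the 3 kidneys with the highest adipose list score.

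**Figure D1:**
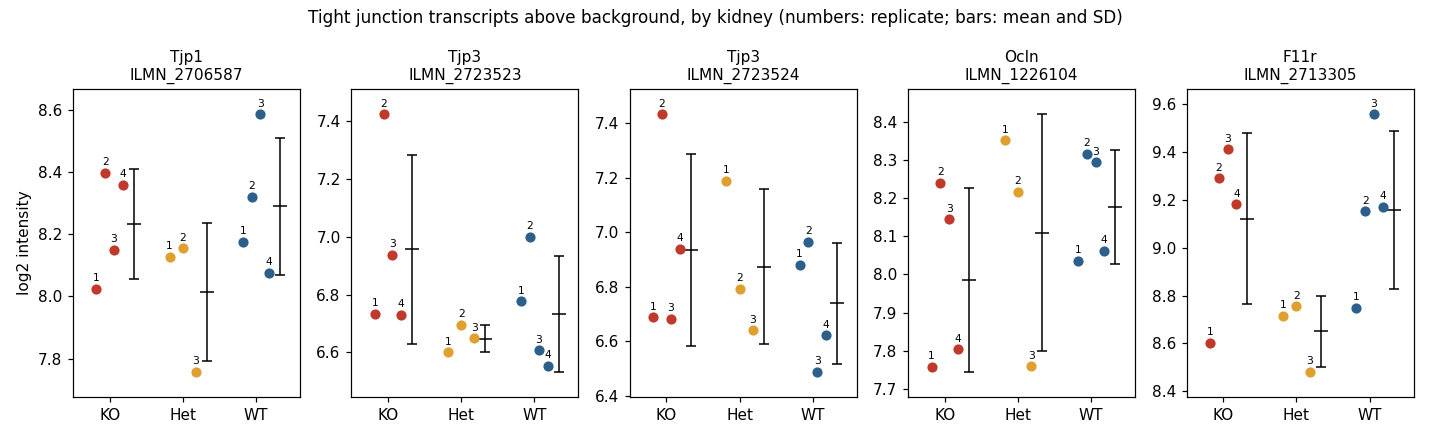
Log2 intensity of the 5 probes above background in each kidney, for KO, Het and WT, with the replicate number at each point and the group mean and SD as a black bar (n = 4 KO, 3 Het and 4 WT). The genotypes overlap on every probe except between KO and Het on the Tjp3 probe ILMN_2723523, and F11r shows 5 kidneys at 8.48 to 8.76 and 6 at 9.15 to 9.56.

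Tjp1, the ZO-1 gene, on chromosome 7, had log2 intensities of 8.03, 8.40, 8.15 and 8.36 in the KO kidneys, 8.13, 8.15 and 7.76 in the Het kidneys, and 8.18, 8.32, 8.59 and 8.08 in the WT kidneys. The lowest value was that of Het 3 and the highest that of WT 3, and the genotypes overlapped. The means were 8.23 ± 0.18 in KO (SD, n = 4), 8.01 ± 0.22 in Het (n = 3) and 8.29 ± 0.22 in WT (n = 4). KO minus WT was -0.06 ± 0.14 (SE), with a 95% interval of -0.36 to 0.25 and an adjusted p of 0.895 in limma. On the linear scale that interval runs from 0.778 to 1.19 times the WT level. Het minus WT was -0.28 ± 0.15, with an interval of -0.61 to 0.05 (adjusted p = 0.785 in limma). Without Het 3 that difference was -0.15, without WT 3 it was -0.18, and within slides 1 and 2 it was -0.11 and -0.57, the last with 1 Het array. The KO minus WT difference turned positive, at 0.04 and 0.01, when WT 3 or KO 1 was left out.

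Tjp3, the ZO-3 gene, on chromosome 10, has 2 probes. On ILMN_2723524, the brighter one, it read 6.69, 7.43, 6.68 and 6.94 in the KO kidneys, 7.19, 6.79 and 6.64 in the Het kidneys, and 6.88, 6.96, 6.49 and 6.62 in the WT kidneys. On ILMN_2723523 it read 6.73, 7.42, 6.94 and 6.73 in the KO kidneys, 6.60, 6.70 and 6.65 in the Het kidneys, and 6.78, 7.0, 6.61 and 6.55 in the WT kidneys. KO 2 was the highest kidney on both probes. The probes correlated at r = 0.668 over the 11 arrays and differed most in Het 1, by 0.59, which read 7.19 on the brighter probe and 6.60 on the other.
KO minus WT was 0.20 ± 0.18 on ILMN_2723524 (interval -0.20 to 0.59, adjusted p = 0.678 in limma) and 0.22 ± 0.16 on ILMN_2723523 (interval -0.11 to 0.56, adjusted p = 0.572). Without KO 2 the difference on ILMN_2723524 was 0.031, and without WT 3 it was 0.11. Het minus WT differed in sign between the probes, at 0.14 ± 0.20 on ILMN_2723524 and -0.09 ± 0.17 on ILMN_2723523 (adjusted p = 0.939 and 0.958 in limma). For KO minus Het the probes gave 0.06 ± 0.20 and 0.31 ± 0.17 (adjusted p = 0.990 and 0.931 in limma). On ILMN_2723523 every KO kidney lay above every Het kidney, by as little as 6.73 in KO against 6.70 in Het, and on ILMN_2723524 the 2 genotypes overlapped.

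Cgn, the cingulin gene, on chromosome 3, was not above background in any kidney. Its deposited linear intensity lay between 55.7 and 70.7, with detection p-values of 0.205 to 0.798. The lowest signal among probes above background was 76.6 to 86.6, depending on the array. Both groups of any comparison are then bounded from above only, and no fold is given. Whether Cgn differed between the genotypes was therefore not detectable here.

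Ocln, the occludin gene, on chromosome 13, read 7.76, 8.24, 8.14 and 7.80 in the KO kidneys, 8.35, 8.22 and 7.76 in the Het kidneys, and 8.04, 8.32, 8.29 and 8.06 in the WT kidneys. The genotypes overlapped, but 3 kidneys stood below all others: KO 1, KO 4 and Het 3, at 7.76 to 7.80, with the other 8 at 8.04 to 8.35. The promoter window of Ocln is shown here because these 3 kidneys are the clearest separation in the gene, and it is given on GRCm38.p6 at chr13:100552669-100552968, minus strand, from RefSeq. It runs from 250 bases before to 50 bases after the start site (1 of 2 windows listed for the gene), and capitals mark CAGGTG, the E-box to which repressors of the Snail family are known to bind.
Ocln: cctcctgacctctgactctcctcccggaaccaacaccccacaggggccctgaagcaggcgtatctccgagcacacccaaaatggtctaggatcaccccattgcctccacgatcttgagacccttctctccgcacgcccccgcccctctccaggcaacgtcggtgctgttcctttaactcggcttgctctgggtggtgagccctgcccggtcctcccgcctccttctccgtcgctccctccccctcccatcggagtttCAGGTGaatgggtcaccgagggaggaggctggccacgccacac
The match begins 7 bases after the start site.

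The means of Ocln were 7.99 ± 0.24 in KO (SD, n = 4), 8.11 ± 0.31 in Het (n = 3) and 8.18 ± 0.15 in WT (n = 4). KO minus WT was -0.19 ± 0.15 (SE), with a 95% interval of -0.52 to 0.14 (adjusted p = 0.626 in limma). Without KO 1 alone it was -0.11. Het minus WT was -0.07 ± 0.17 and KO minus Het -0.12 ± 0.17 (adjusted p = 0.968 and 0.964 in limma). The 3 low kidneys were the 3 with the highest adipose list score, namely 1.81, 1.5 and 1.72. Without them KO minus WT was 0.02, with 2 KO kidneys left at a mean of 8.19 against 8.18 in WT, and Het minus WT was 0.11. As they are the lowest in Ocln and none is WT, leaving them out had to raise both differences. These values therefore say nothing about adipose tissue. Of the list, Adipoq was above background on 11 arrays, Ucp1 on 9, Lep on 3 and Plin1 on 1.

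**Figure D2:**
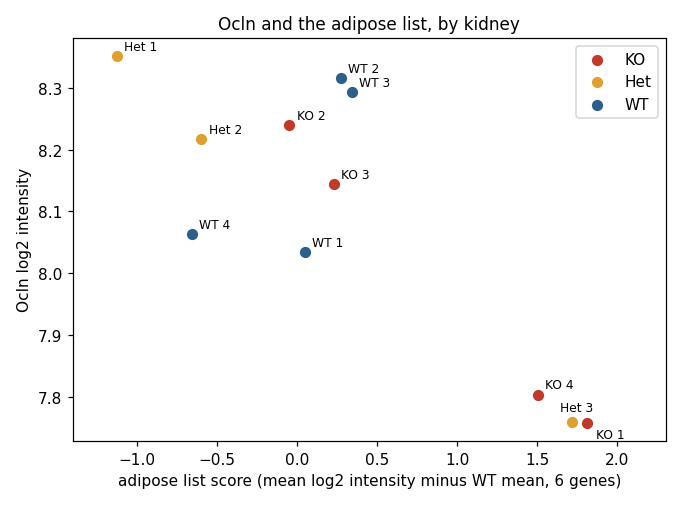
Ocln log2 intensity (vertical axis) against the adipose list score (horizontal axis, log2 units relative to the WT mean, 6 genes) for each of the 11 kidneys, coloured by genotype. KO 1, KO 4 and Het 3 sit at the lower right, with scores of 1.5 to 1.81 and Ocln at 7.76 to 7.80, and the other 8 kidneys lie above and to the left of them.

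Among 12175 other tested genes, those whose log2 intensity was most like that of Ocln over the 11 kidneys were Zfp868 (r = 0.915), Tlr3 (r = 0.905), an innate receptor for double-stranded RNA, and Slc25a32 (r = 0.898), a mitochondrial folate carrier. Without KO 1, KO 4 and Het 3 these correlations were 0.785, 0.640 and 0.719. Leaving out the 3 lowest Ocln values narrows its range, which by itself can lower a correlation. Among the 30 genes with the largest correlation of either sign were 2 of the adipose list, which holds 6 of all 12179 tested genes. They were the lipid droplet protein gene Plin1 (r = -0.912) and the leptin gene Lep (r = -0.879), each above background in 3 kidneys or fewer. Other tested genes of that list above background in more kidneys, Adipoq and Ucp1 among them, were not in the 30. The part of adipose tissue in the Ocln values was not tested.

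Marveld2, the tricellulin gene, lies beside Ocln on chromosome 13, with a small nucleolar RNA and a pseudogene but no protein-coding gene between them. It was not above background in any kidney: its deposited intensity was 49.3 to 59.8, with detection p-values of 0.668 to 0.973. The gene therefore gives no fold, and these data do not show whether it moves with its neighbour.

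**Figure D3:**
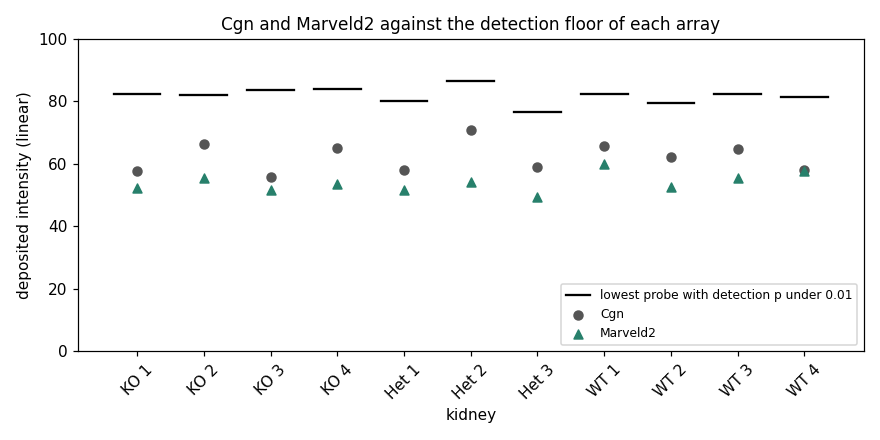
Deposited linear intensity of the Cgn and Marveld2 probes in each of the 11 kidneys (KO, Het and WT from left to right) with the lowest intensity of any probe above background on that array as a black line. Both probes lie under the line in every kidney, Cgn at 55.7 to 70.7 and Marveld2 at 49.3 to 59.8 against lines at 76.6 to 86.6.

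F11r, the JAM-A gene, on chromosome 1, read 8.60, 9.29, 9.41 and 9.18 in the KO kidneys, 8.71, 8.76 and 8.48 in the Het kidneys, and 8.75, 9.15, 9.56 and 9.17 in the WT kidneys. All 3 Het kidneys were low, together with KO 1 and WT 1, and the remaining 3 KO and 3 WT kidneys were at 9.15 or above. The promoter window of F11r is printed because F11r gave the largest log2 difference of the measured genes in any of the 3 comparisons. It lies on GRCm38.p6 at chr1:171437311-171437610, plus strand, from RefSeq, with the same extent around the start site, and capitals mark CACCTG, the same E-box read on the other strand.
F11r: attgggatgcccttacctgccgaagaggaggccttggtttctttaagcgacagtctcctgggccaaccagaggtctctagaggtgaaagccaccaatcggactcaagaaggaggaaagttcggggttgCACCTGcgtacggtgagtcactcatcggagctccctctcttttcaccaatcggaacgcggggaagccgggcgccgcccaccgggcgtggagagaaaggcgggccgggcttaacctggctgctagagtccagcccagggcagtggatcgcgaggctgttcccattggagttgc
The match begins at position -122 relative to the start site. Of the 6 genes, Tjp3, Ocln, F11r and Marveld2 hold CAGGTG on either strand of this 300-base window and Tjp1 and Cgn do not. It is held by 20% of all windows (5413 of 27025 genes). A match describes the sequence only, and whether a protein binds there was not measured.

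The means of F11r were 9.12 ± 0.36 in KO (SD, n = 4), 8.65 ± 0.15 in Het (n = 3) and 9.16 ± 0.33 in WT (n = 4). Het minus WT was -0.51 ± 0.20 (SE), with a 95% interval of -0.95 to -0.07, which is 0.703 times the WT level (0.518 to 0.955). That difference had an unadjusted p of 0.0274 and an adjusted p of 0.716 in limma, and an exact two-sided permutation p of 0.0857. KO minus Het was 0.47 ± 0.20, with an interval of 0.03 to 0.91 (unadjusted p = 0.0380, adjusted p = 0.889 in limma, exact permutation p = 0.114). These 2 differences share the 3 Het arrays. KO minus WT was -0.04 ± 0.19, with an interval of -0.44 to 0.37 (adjusted p = 0.955 in limma). Within slide 1 Het minus WT was -0.22, and within slide 2, with 1 Het array, it was -0.88; KO minus Het was 0.21 and 0.82. Without KO 1, KO 4 and Het 3, the kidneys with the most adipose signal, Het minus WT was -0.42 (unadjusted p = 0.0554, adjusted p = 0.726 in limma). In the same fit KO minus Het was 0.62 (unadjusted p = 0.0206, adjusted p = 0.836 in limma) and KO minus WT was 0.19.

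**Figure D4:**
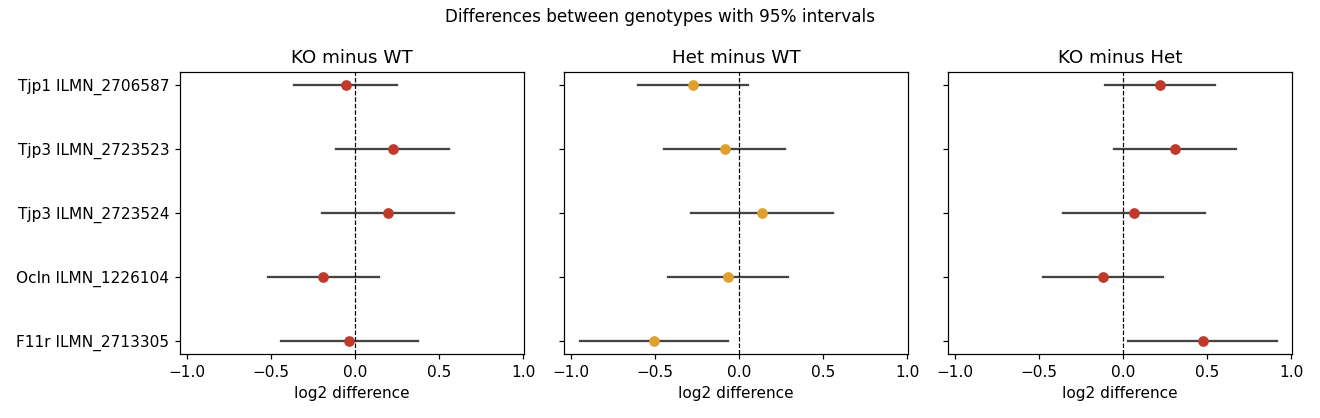
Log2 differences of the 5 measured probes for KO minus WT, Het minus WT and KO minus Het, with points for the estimate and lines for the 95% interval from the limma fit over 11 arrays. The interval of F11r leaves 0 in the Het comparisons, at -0.95 to -0.07 and 0.03 to 0.91, and every other interval includes 0.

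In KO against WT, 0 of the 5 measured probes were called at an adjusted p of 0.05 and 0 had an unadjusted p under 0.05 in limma, where 0.0394% of all 22856 tested probes were called and 12.9% had such an unadjusted p. Het against WT gave 0 of 5 calls and 1 of 5 probes with an unadjusted p under 0.05 (F11r), with 0% and 6.75% over all probes. KO against Het gave 0 of 5 calls and 1 of 5 probes with an unadjusted p under 0.05 (F11r again). Over all probes these shares were 0% and 5.43%. In KO against Het 1 of 5 probes was without overlap, the Tjp3 probe ILMN_2723523 (exact permutation p = 0.143). Probes without overlap were not counted over the whole array, so this separation has no background share to be set against. Exact two-sided permutation tests of the same 15 differences gave p-values from 0.0857 upward, and the smallest after Benjamini-Hochberg adjustment over the 15 was 0.673; the smallest p such a test can give is 0.0286, with 4 against 4 arrays or with 3 against 4. Over the 5 probes, the 95% intervals for KO minus WT reached at most 0.59 above 0 and 0.52 below it. For each probe, differences inside its own interval remain compatible with the data. The bounds are not a limit of detection, since larger differences also went uncalled, such as Cldn11 at 1.74 in KO minus WT (adjusted p = 0.362 in limma).

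The 3 genes most like F11r over the 11 kidneys all lie on chromosome 1, as F11r does. They were Dusp23 (r = 0.988), a phosphatase gene with 31 protein-coding genes between it and F11r, Thap4 (r = 0.934), 423 genes away, and Mcm6 (r = 0.933), 333 genes away, which encodes a subunit of the helicase that opens DNA for replication. Dusp23 read 8.61, 9.60, 9.89 and 9.42 in the KO kidneys, 8.88, 8.74 and 8.45 in the Het kidneys, and 8.90, 9.52, 10.06 and 9.31 in the WT kidneys. Here too the Het kidneys, KO 1 and WT 1 were the 5 lowest.

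Mcm6 (ILMN_1217331) read 4.36, 8.90, 9.72 and 9.10 in the KO kidneys, 4.36, 4.36 and 4.26 in the Het kidneys, and 4.31, 9.06, 9.65 and 9.93 in the WT kidneys. This probe was not above background in KO 1, the 3 Het kidneys and WT 1, which are the 5 kidneys lowest in F11r. In those 5 F11r was at 8.48 to 8.76, and in the other 6 it was at 9.15 to 9.56. Of the further Mcm6 probes, ILMN_1233857 was above background on 8 arrays (4.80 to 7.84) and correlated with F11r at 0.943, and ILMN_2803399 was above background on all 11 (5.44 to 8.49) and correlated at 0.938, so Mcm6 itself was detected in every kidney. The second Dusp23 probe correlated with F11r at 0.963. Thap4 ran from 10.47 to 12.54, with Het minus WT at -1.27 ± 0.39 (adjusted p = 0.661 in limma).

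Chromosome 1 was counted after these values were seen, and Dusp23, Thap4 and Mcm6 are themselves among the genes counted on it. Of the 30 genes with the largest correlation with F11r of either sign, 17 lie on it (56.7%), against 5.29% of 12169 tested genes with a known chromosome. For Tjp3 4 of 30 lie on its own chromosome 10 (13.3%, against 4.78% of tested genes), and for Ocln and Tjp1 1 of 30 each (3.33%, against 3.53% on chromosome 13 and 7.87% on chromosome 7). Over all other tested genes of chromosome 1, 25 of 643 had a correlation with F11r above 0.8 or below -0.8 (3.89%), against 44 of 11525 on the other chromosomes (0.382%). The median absolute correlation was 0.303 on chromosome 1 and 0.244 on the others, so most genes of chromosome 1 did not follow F11r closely. The mice are of a mixed Sv129 and C57BL/6N background, and the labels do not say which parental chromosome 1 each of them carried. Its part in the F11r values was not tested.

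**Figure D5:**
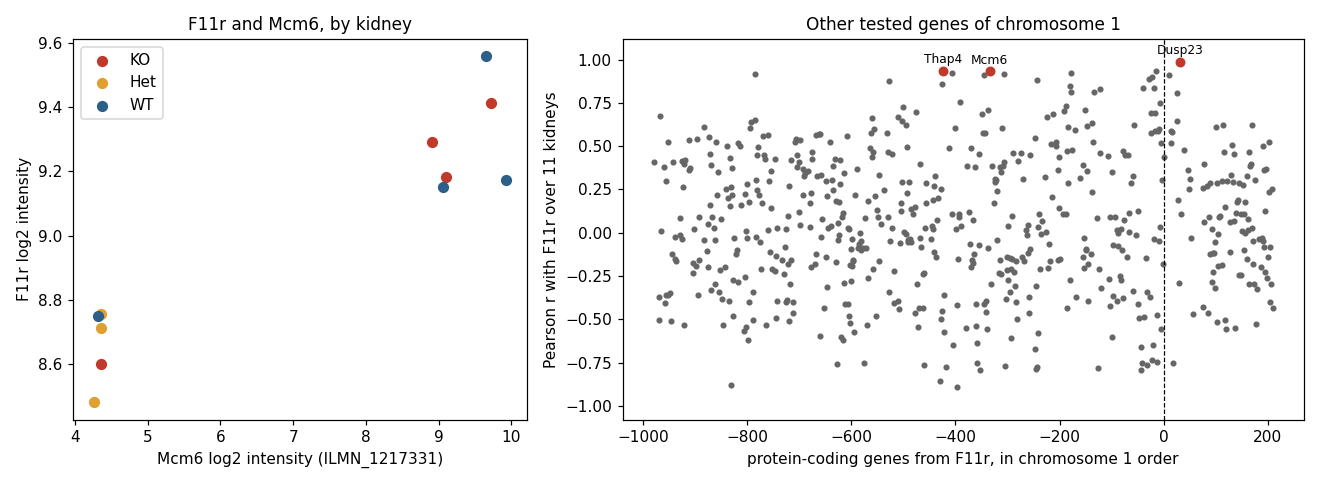
Left, F11r against Mcm6 log2 intensity in the 11 kidneys, coloured by genotype; right, the Pearson correlation with F11r over the 11 kidneys of the 627 other tested chromosome 1 genes with a known place, against their place counted in protein-coding genes from F11r (0, dashed line). The left plot shows 5 kidneys low in F11r and on this Mcm6 probe (1 KO, 3 Het and 1 WT) and 6 high on both (3 KO and 3 WT), and on the right Dusp23, Thap4 and Mcm6 lie at 0.93 or above.

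For Tjp3 the most alike genes were Fam189b (r = 0.929), which was above background in only 3 of the 11 kidneys, Scamp4 (r = 0.923), a secretory carrier membrane protein gene on the same chromosome with 36 protein-coding genes between, and Tbc1d12 (r = 0.907). For Tjp1 they were Suclg2 (r = 0.911), a subunit of succinyl-CoA synthetase, Tmem161b (r = 0.910), and Nptn (r = 0.900), an immunoglobulin-type adhesion protein.

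Among the 6 pairs of measured genes, 5 correlated positively over the 11 kidneys, and 1 passed adjustment over the 15 pairs formed by the 6 genes. F11r and Tjp1 gave Pearson r = 0.785 (permutation p = 0.00293, adjusted 0.0439) and Spearman rho = 0.736 (permutation p = 0.0125, adjusted 0.188). Without Het 3 and KO 1, the 2 kidneys farthest from the median in F11r, r was 0.632, and without KO 1, KO 4 and Het 3 it was 0.630. On the 6 arrays of slide 1 r was 0.981, and the other pairs of measured genes were also higher there than over all 11. They ran from 0.535 (F11r and Ocln) to 0.721 (Tjp1 and Tjp3) on slide 1. Ocln correlated with Tjp1 at r = 0.551 (permutation p = 0.0773) and with F11r at 0.457 (permutation p = 0.155), and without the 2 farthest kidneys these were 0.120 and -0.02. The arrays share their normalization, and 11 kidneys of 3 genotypes limit what any of these values can show.

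Other genes of the junction were counted from fixed lists. Of the 29 other plaque and polarity genes listed, 26 were tested in KO against WT, and 0 rose and 0 fell at an adjusted p of 0.05, with a median difference of 0.10 and 16 higher, against a median of 0.00 and 50.5% higher over 12179 tested genes. Those with an unadjusted p under 0.05 were Amot, an angiomotin that binds junction scaffolds and was above background on only 2 of 11 arrays, so that its difference is not given, Pard3, a polarity scaffold that binds JAM-A (0.36 ± 0.13, adjusted p = 0.290), and Arhgef2, an exchange factor held at the junction by cingulin (-0.42 ± 0.16, adjusted p = 0.296; all limma). Of 16 other membrane protein genes 12 were tested, 0 were called and 8 were higher (median 0.04), with Marveld1, a MARVEL family member, the farthest at 0.46 ± 0.17 (adjusted p = 0.290 in limma).

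Of 21 claudins 16 were tested in KO against WT, 0 were called and 8 were higher (median -0.0025). Cldn16 itself and Cldn11 had an unadjusted p under 0.05, Cldn11 at 1.74 ± 0.76 (adjusted p = 0.362 in limma). Cldn11 varied widely within genotypes (SD 1.52 in KO and 1.11 in WT), and its difference was 2.89 on slide 1 and 0.58 on slide 2. Of the companions of Cldn16 in the thick ascending limb, Cldn19 was at -0.06 ± 0.10 (adjusted p = 0.837) and Cldn10 was at -0.02 ± 0.12 (adjusted p = 0.965 in limma). In the adherens junction and desmosome list 15 of 20 genes were tested, 0 were called and 10 were higher (median 0.10). The adhesion protein gene Nectin2 (0.36 ± 0.13, adjusted p = 0.276), the alpha-catenin gene Ctnna1 (0.28 ± 0.11, adjusted p = 0.310) and the kidney cadherin gene Cdh16 (0.25 ± 0.11, adjusted p = 0.360 in limma) led it, while the E-cadherin gene Cdh1 was at 0.00 ± 0.12 (adjusted p = 0.993). An unadjusted p under 0.05 was found for 11.5% of the plaque list, 8.33% of the membrane list, 12.5% of the claudins and 20% of the adherens list, against 12.7% of all tested genes. In Het against WT 0 genes of these 4 lists were called, and an unadjusted p under 0.05 in limma was found for 2 plaque, 0 membrane, 1 claudin and 0 adherens genes, which is 7.69%, 0%, 6.25% and 0% of those tested, against 6.29% of all tested genes. In KO against Het 0 were called, and the same counts were 2, 0, 1 and 2 (7.69%, 0%, 6.25% and 13.3%, against 5.35% of all tested genes). In that comparison 19 of 26 plaque, 8 of 12 membrane, 9 of 16 claudin and 14 of 15 adherens genes were higher in KO. These are 73.1%, 66.7%, 56.2% and 93.3%, against 52.4% of all tested genes, and the adherens median was 0.17. All genes of a list rest on the same 3 Het arrays, so these counts are not independent observations.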

How the data were processed

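Per the file headers, the deposited values are linear bead intensities and detection p-values of 45281 probes on 11 arrays. BeadStudio is named in the submitters' processing notes; no source used here gives its background setting or defines the detection p-value. A second deposited table holds processed intensities, which a quantile normalization of the first matched to a median difference of 0.00392. The deposited intensities were corrected with limma's normexp method through the detection p-values (offset 16), normalized between arrays by quantiles and log2-transformed (R 4.3.3, limma 3.58.1). Probes were kept if 3 or more arrays had a detection p under 0.05, and these 22856 were fitted with lmFit and eBayes, 1 mean per genotype over all 11 arrays, and two-sided p-values were adjusted by the Benjamini-Hochberg method over all of them. Above background means a detection p under 0.01. Probes were named through the platform annotation (34885 with 1 symbol, 18 with several, 10378 with none), and a gene stands by its brightest tested probe. The number of arrays limits the precision. Single values were also compared by exact permutation tests over arrays, and the script was tested on simulated data. The 6 genes and the gene lists were chosen with earlier results of these data known, and the 3 arrays left out together because of their adipose signal come from such results. Named genes are the 6 genes and their probes, up to 4 genes a list with the smallest unadjusted p under 0.05 in KO against WT, fixed partners and markers, and the 3 genes most correlated with each; Plin1, Lep and the chromosome counts were chosen after values were seen. Promoter windows and gene order are RefSeq's on GRCm38.p6; no source used here names a build for the arrays. Replicate numbers are in accession order. The labels list each sample as 1 numbered mouse.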

Additional observations from a re-analysis of the deposited data

How the results depend on the processing

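Each of the 3 counts of called probes stayed at 0 under all 25 alternatives (background correction, offset, normalization, filter, slide, postnatal day, samples in the fit, probe choice and arrays left out). Of 300 differences recomputed, 284 kept their sign and 16 reversed, and 0 passed the threshold (smallest adjusted p 0.477 in limma). Part of the 284 could not change by construction, so this count overstates how stable the signs are. A difference stays as it was under another filter, in a fit of only the genotypes compared, or without an array of the genotype not compared. Shifting arrays to a common median moved the median of all probes by 0.106 in KO minus WT and 0.0961 in Het minus WT, and with it F11r (0.13) and Tjp1 (0.12) in KO minus WT and Ocln (0.082) in Het minus WT. Slide 1 alone turned Ocln in Het minus WT (0.11), and slide 2 alone turned it in KO minus Het (0.21). Without KO 1, KO 4 and Het 3, KO minus WT was 0.19 for F11r and 0.015 for Ocln, and Het minus WT was 0.11 for Ocln. The 2 Ocln differences had to rise, since these 3 kidneys are its lowest and none is WT. Leaving out 1 array at a time gave KO minus WT ranges of -0.17 to 0.14 for F11r (positive without WT 3 or KO 1) and -0.128 to 0.042 for Tjp1 (positive without the same arrays), Het minus WT ranges of -0.19 to 0.11 for Ocln (positive without Het 3) and -0.023 to 0.252 for Tjp3 (negative without Het 1), and a KO minus Het range of -0.10 to 0.22 for Tjp3 (negative without KO 2 or Het 3). The Ocln KO minus Het difference ran from -0.298 (without Het 3) to -0.0018 (without Het 1). F11r kept its sign in Het minus WT (-0.88 to -0.22) and in KO minus Het (0.21 to 0.82), with an unadjusted p under 0.05 in 20 and 18 of the 25. Without the 2 farthest arrays the correlation of F11r with Ocln was -0.015 and with Tjp3 -0.33, and those of Ocln with Tjp3 and of Tjp1 with Tjp3 were 0.163 and 0.681. The cause of these reversals was not tested. KO against WT calls over all probes ranged from 0 to 15. No paired analysis was possible because the replicate numbers are in accession order and pair no mice. Cgn and Marveld2 lay under the detection floor, so nothing about them depends on these settings.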
